A study of Mus musculus with 6 samples.

Results

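Cytosolic ribosomal protein genes were followed in macrophages sorted from the brains of young and aged mice. Members were the protein-coding genes whose symbol starts with Rpl or Rps followed by a digit, without pseudogene names and without the kinase genes named Rps6k. The pattern took 82 of the 35598 listed genes, 33 named for the small ribosomal subunit and 49 for the large one. The rule itself reads names and no measured value. Of the members, 30 small and 43 large ones encode the standard proteins of the cytosolic ribosome. The other 9 are relatives (Rpl3l, Rpl10l, Rpl22l1, Rpl36al, Rpl39l, Rps27l and Rps27rt) or genes of another role, namely Rpl7l1, a relative of Rpl7, and Rps19bp1, whose product binds a ribosomal protein. The pattern misses 6 standard genes, among them Rplp0, Rplp1, Rplp2, Rpsa and Fau, which were read separately.

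The cells were CD3- CD11b+ CD45+ CD206+ central nervous system-associated macrophages (CAMs) of male C57BL/6 mice. Aged libraries (18 months, n = 3) were compared with young ones (2 months, n = 3), and the labels name no treatment, pooling or allele. Nothing there says that libraries came from separate animals; the p-values then cover library-to-library spread alone, possibly technical.

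Each ribosome joins a small subunit, which reads the mRNA, to a large subunit, which forms the peptide bond. Subunits hold their proteins in fixed numbers, mostly a single copy of each, so cells make the mRNAs of these genes in high and coordinated amounts. Most of these mRNAs begin with a run of pyrimidines at the very 5′ end, the terminal oligopyrimidine (TOP) tract, through which growth signals of the mTOR pathway set their translation. Many of the genes have processed pseudogenes, copies of the mRNA elsewhere in the genome, which makes short reads from them hard to place.

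The start sites of a few members are shown because the tract is the sequence feature that defines this class of mRNA. Windows run from 35 bases before to 15 bases after the start annotated by RefSeq (GRCm38.p6), and capitals mark a C followed by at least 7 pyrimidines on the gene's strand, beginning within 10 bases of the start.
Rps27 (chr3:90213634-90213683, minus strand): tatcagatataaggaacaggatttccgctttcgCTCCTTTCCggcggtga
Rps6 (chr4:86857353-86857402, minus strand): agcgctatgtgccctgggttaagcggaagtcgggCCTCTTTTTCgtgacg
Rps9 (chr7:3704006-3704055, plus strand): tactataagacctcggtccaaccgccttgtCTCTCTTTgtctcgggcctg
Rpl15 (chr14:18270972-18271021, minus strand): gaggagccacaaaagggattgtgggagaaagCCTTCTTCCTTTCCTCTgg
Rpl11 (chr4:136053379-136053428, minus strand): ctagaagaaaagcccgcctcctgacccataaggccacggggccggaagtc
Rpl4 (chr9:64173352-64173401, plus strand): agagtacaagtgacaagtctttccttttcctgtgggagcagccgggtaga
The first 4 carry such a tract at the annotated start. The windows of Rpl11 and Rpl4, picked because their values are described below, hold none that begins within that distance, as do 43 of the 63 members matched. The pyrimidine run in the Rpl4 window begins further upstream.

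Of the members, 63 matched the RefSeq start-site table by symbol. With 1 window of 300 bases per gene (250 before to 50 after the start), 20 of 63 (31.7%) had the tract, against 8.03% of the 27025 genes in that table. The ETS factor motif CCGGAAG, searched on both strands, was in 23 of 63 member windows (36.5%) and in 9.12% of all windows. The SP1 motif GGGCGG was in 58.7% and 35.9%, and the YY1 motif AAGATGGC in 7.94% and 2.88%. The TATA motif TATAAA was in 7.94% of member windows and 14.2% of all. These matches are descriptions of the letters and depend on the annotated start. The 20 tested members with a tract had a median log2 fold change of -0.19, aged against young, and the 41 tested members without it a median of -0.28.

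The libraries held 26605079 to 33306121 counts, with 5 counts or more for 9866 to 12523 genes. Members made up 3.29% to 6.31% of counts. Aged 2 stood apart: its scaling factor by TMM, the edgeR method that fits a common scale over genes, was 1.18, against 0.942 to 1.01 in the other libraries. Levels below are CPM, counts scaled to the same library total, on that scale. Of 10 border macrophage markers, all were above 3 counts in some library, and their summed level was 24865, 26687 and 23488 CPM at 2 months and 16045, 7503 and 13286 CPM at 18 months, with 6 of 10 markers lower in all aged libraries than in the young ones, as were 7.19% of the genes tested. The 10 microglia markers summed to 3928 to 6683 CPM at 2 months and to 8832, 16298 and 12971 CPM in aged 1, 2 and 3, with 8 of 10 higher in all aged libraries (7.54% of the genes tested), and none of the 10 was at 3 counts or fewer in every library. Neutrophil markers summed to 12011 to 37805 CPM at 2 months and to 21643, 8035 and 23.6 CPM at 18 months. The erythroid markers summed to 10106 to 30506 CPM at 2 months and to 9886, 9124 and 181 CPM in aged ones. Choroid plexus markers summed to 1453, 1118 and 12008 CPM at 2 months and to 1039, 572 and 8222 CPM at 18 months. Over all libraries, monocyte markers summed to 14667 to 26071, B cell markers to 165 to 365 and T and NK cell markers to 1.41 to 177 CPM. Their part in the results below was not tested. In such sorted pools, fewer cells of a type and less RNA per cell cannot be told apart.

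Member levels were high, with a mean of up to 8147 TPM (the transcript level in the authors' tables, scaled for length and depth) and a median of 812 TPM. A mean above 1000 TPM was reached by 33 members, and 9 stayed under 100 TPM. The order of the 80 members that passed the low-count filter was stable, with Spearman's rho of 0.949 to 0.988 over the 15 pairs of libraries, a description across genes. The 30 standard small subunit members had a median of 932 TPM and the 43 large subunit ones 805 TPM.

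**Figure D1:**
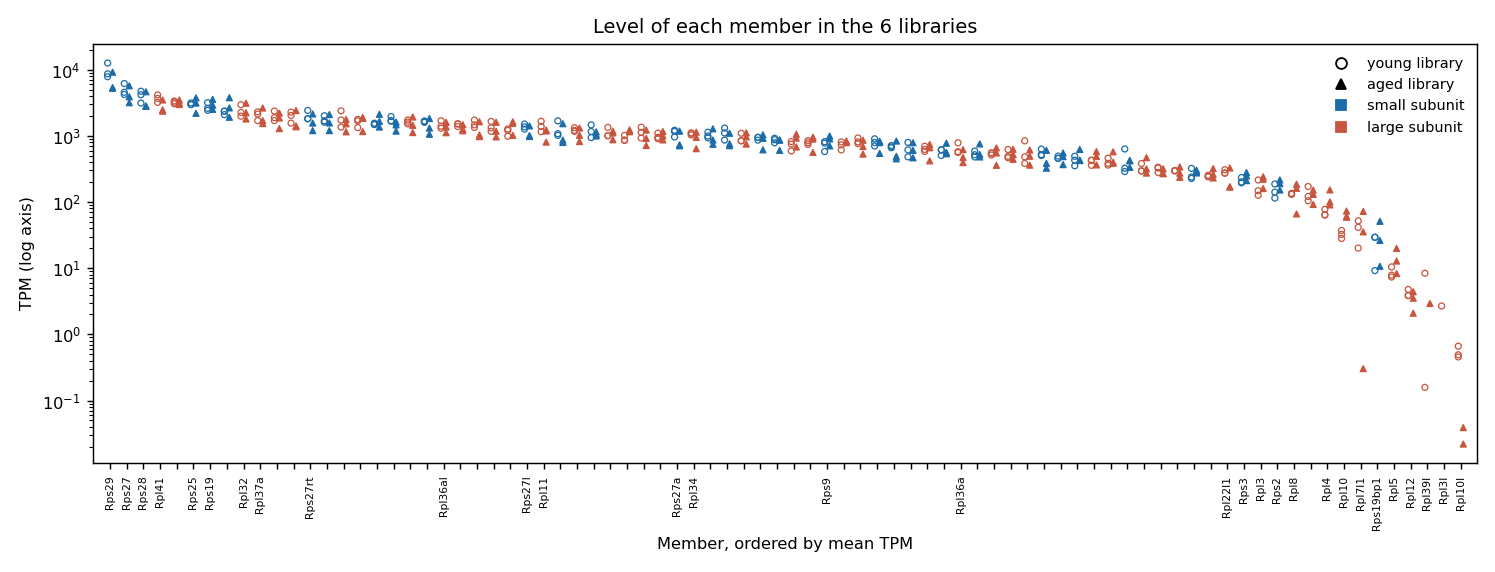
TPM (log axis) of all 82 members in each library, ordered by mean TPM; open circles are young and filled triangles aged libraries, blue the small and red the large subunit, values of 0 are not drawn, and only members discussed in the text are labelled. The order is led by Rps29 and ends in Rpl10l, and 33 members lie above a mean of 1000 TPM.

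The highest level belonged to Rps29, a small zinc-binding protein of the small subunit, at 9701 ± 2556 TPM in young and 6594 ± 2244 TPM in aged libraries (SD, n = 3 each). It was followed by Rps27 (4983 ± 1045 and 4262 ± 1310 TPM) and Rps28 (4017 ± 810 and 3424 ± 1058 TPM), both small subunit proteins. In the large subunit, Rpl41, which encodes a very short peptide, led with 3682 ± 476 and 2774 ± 620 TPM. For each of these genes the ranges of mean ± SD overlapped between the ages. Rpl32 and Rpl37a, also among the highest of that subunit, had fitted age differences of -0.18 (SE 0.37) and -0.25 (SE 0.37) on the log2 scale.

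At the low end stood standard genes whose proteins every ribosome needs. Rpl12, of the stalk base, had a mean of 3.75 TPM, and Rpl5 and Rpl10, which enter the large subunit during its assembly, had 11.1 and 48.5 TPM. Of all 100-base windows in their transcripts, 46.8% (Rpl12), 82.7% (Rpl5) and 68.4% (Rpl10) were identical to a stretch of another annotated gene. The median member shared 25.4%, 21 members shared over 50% and 9 shared none. With the listed genes alone, the median member shared 0%. Members with high sharing are uncertain, since the counting could have split their reads or moved them to copies. In the small subunit the lowest were Rps2, Rps3 and Rps26, at 167 TPM (Rps2) and 228 TPM (Rps3), with 43.8% of windows shared for Rps2 and 0% for Rps3.

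The question addressed was whether these genes differ between 2 and 18 months, and whether the subunits differ alike. Small subunit members summed to 2.51%, 3.11% and 2.61% of counts in the young libraries and to 2.93%, 1.54% and 2.15% in the aged ones. Large subunit members summed to 2.69%, 3.20% and 2.93% in young and to 3.12%, 1.75% and 2.53% in aged libraries. Both subunits were lowest in aged 2, and aged 3 also lay below every young library in both. Aged 1 lay within the young range. The mean sum of all members was 5.68 ± 0.564% in young and 4.67 ± 1.38% in aged libraries (SD, n = 3 each), and 5.36% in aged without aged 2. The groups overlapped.

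**Figure D2:**
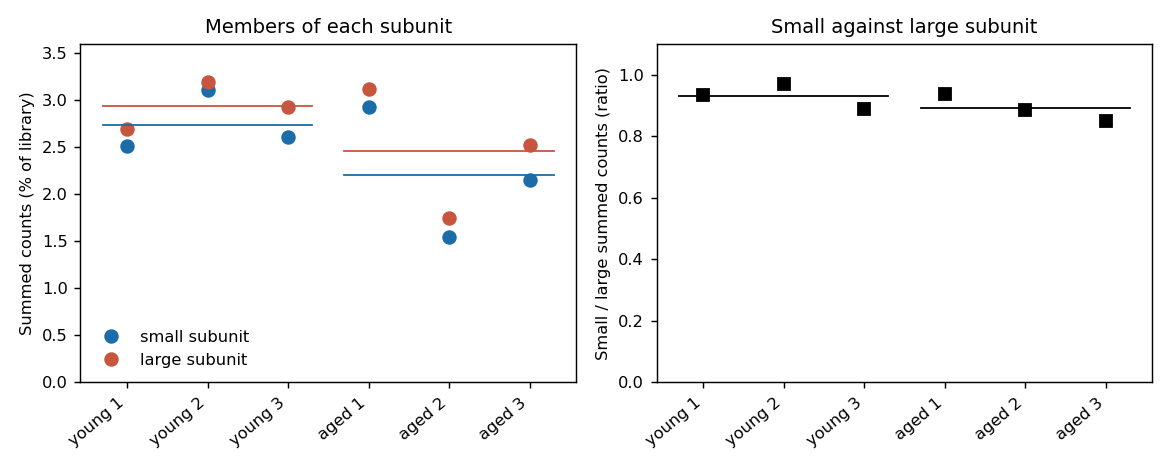
Left, summed counts of the small (blue) and large (red) subunit members in percent of each library's counts; right, their ratio; lines are group means. In both subunits aged 2 is lowest (1.54% and 1.75%), and the ratio runs from 0.849 to 0.971.

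Counts of small over large subunit members gave ratios of 0.934, 0.971 and 0.889 in young and 0.937, 0.885 and 0.849 in aged libraries. The mean was 0.931 ± 0.0410 and 0.890 ± 0.0443 (SD, n = 3 each). Aged 1 lay above a pair of young libraries, so the groups overlapped, and the difference of means was about the size of the SD in either group. The ratio in aged 2 was close to that of young 3, although the sum in aged 2 was the lowest of all, so the subunits were low together there.

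No member was called by edgeR's quasi-likelihood test at an adjusted p under 0.05 (0 of 80 tested, 0 higher and 0 lower; smallest adjusted p = 0.656), beside a background of 0.00938% of the 10661 genes tested. At an unadjusted p under 0.05 there was 1 member, Rpl10l, against 5.67% of all genes tested. Rpl10l passed the low-count filter through its young libraries alone, so this p is no support for a change. When only genes with a mean of 50 CPM or more were tested, 0 of 76 members passed, beside 1.14% of genes (0.87% higher, 0.275% lower). The fitted log2 fold change was below 0 for 28 of 33 tested small subunit members (median -0.30) and for 41 of 47 large ones (median -0.25), where the median over all genes tested was -0.02 and 50.7% lay below 0. These medians rested on aged 2. Without it the medians were -0.0043 (small) and -0.0042 (large), with 42 of 80 below 0. Without aged 1 they were -0.50 and -0.52. The SE of a single member was 0.36 at the median, so differences of the size of these medians were not detectable gene by gene with these libraries.

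**Figure D3:**
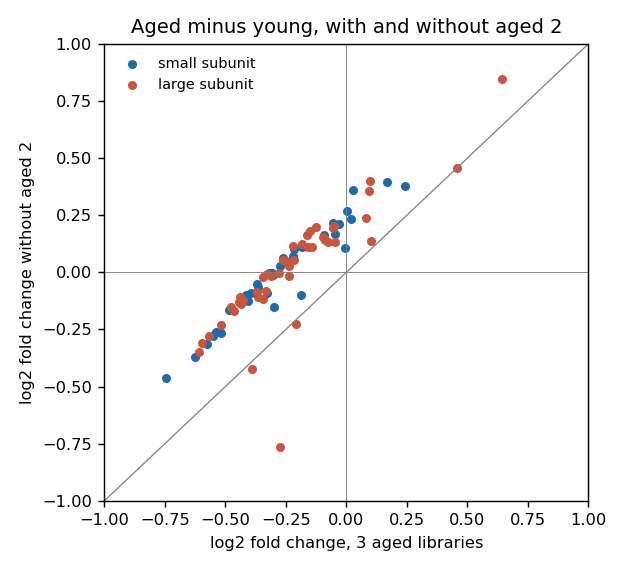
Log2 fold change (aged minus young) of each tested member with all 3 aged libraries (x) and without aged 2 (y), blue small and red large subunit; the diagonal marks equal values, and Rpl10l lies outside the axes and is not drawn. Most points lie above the diagonal and scatter around 0 on the y axis, where the medians are -0.0043 and -0.0042.

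Among the small subunit members, those with the smallest p in the lower direction included Rps29 and Rps27a. Rps29 (mm10 chromosome 12, 69157722 to 69159186) was at 2864, 4359 and 3009 CPM at 2 months and at 3153, 1177 and 1774 CPM at 18 months. Aged 1 exceeded a pair of young libraries, so the groups overlapped (log2 fold change -0.75, SE 0.39, edgeR adjusted p = 0.917). Rps27a, which encodes ubiquitin fused to a ribosomal protein, was at 989, 1160.0 and 1148 CPM at 2 months and 1127, 443 and 701 CPM at 18 months (log2 fold change -0.54, SE 0.36, edgeR adjusted p = 0.973).

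In the other direction stood Rps2, a protein at the mRNA entry channel, with 187, 241 and 153 CPM at 2 months and 287, 186 and 214 CPM at 18 months. Its groups overlapped (log2 fold change 0.24, SE 0.34). Rps15a had fitted changes of 0.03 (SE 0.39) and Rps7 of 0.02 (SE 0.35). The abundant Rps25 ranged from 1456 to 1561 CPM in young libraries, and it was at 1783, 679.8 and 1463 CPM in aged 1, 2 and 3. So Rps25 was above the young range in one aged library, far below it in the next and inside it in the third.

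In the large subunit, Rpl41 (mm10 chromosome 10, 128548114 to 128549305) was at 1764, 2149.9 and 1944 CPM at 2 months and 1787, 795 and 1264 CPM at 18 months (log2 fold change -0.61, SE 0.34, edgeR adjusted p = 0.930). Aged 1 lay inside the young range. Rpl11 (mm10 chromosome 4, 136028265 to 136053428), which also binds the p53 regulator Mdm2, was at 660.0, 839 and 723 CPM at 2 months and 607, 275 and 586 CPM at 18 months. Its groups did not overlap (log2 fold change -0.60, SE 0.35, edgeR adjusted p = 0.939). Of its windows, 51.3% are shared with other annotated genes, but 0% with listed ones. Rpl36a had a fitted change of -0.57 (SE 0.38), with aged 1 at 354 CPM between young libraries at 328 and 451 CPM.

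Rpl4 (mm10 chromosome 9, 64173375 to 64178666), a protein with a long extension at the exit tunnel, had values in the other direction. It was at 219, 196 and 195 CPM at 2 months and at 275, 281 and 282 CPM at 18 months, aged 2 included. So the groups did not overlap, and the aged SD was 3.80 CPM, yet the difference did not pass the test (log2 fold change 0.46, SE 0.29, edgeR adjusted p = 0.953). Leaving out aged 2 gave the same log2 fold change of 0.46. Rpl10 was at 41.3, 49.2 and 39.7 CPM at 2 months and 90.8, 48.0 and 64.8 CPM at 18 months (log2 fold change 0.64, SE 0.51). Rpl3, beside the peptidyl transferase centre, was at 480.3, 234 and 308 CPM at 2 months and 329, 349 and 419.6 CPM at 18 months, with full overlap.

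Groups that do not overlap were no more frequent among members than among all genes tested, and in the lower direction the shares were near each other (5% and 7.19%). Of 80 tested, 1 had all aged values above all young ones (Rpl4), where 7.54% of the genes tested did so. All aged values were below all young ones for 4 (among them Rps27l, Rpl11 and Rpl10l), where 7.19% of the genes tested were. Of these, Rpl10l passed the low-count filter through its young libraries alone. Among genes averaging 50 CPM or more these shares were 11.2% and 8.45%, and among the 76 members at that level the counts were 1 and 3.

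Aged 2 was the lowest of the 6 libraries for 70 of the 80 tested members, and for 66 when libraries were scaled by total counts alone. Among the 2189 genes averaging 50 CPM or more it was the lowest for 35.6%. The median member in aged 2 was 1.08 log2 units under the young mean (-1.08; small subunit -1.15, large subunit -1.06), where the median gene of at least 50 CPM stood at -0.22. In aged 1 the median member stood at 0.18 and in aged 3 at -0.15. More than 1 log2 unit under the young mean were 2 members in aged 1, 46 in aged 2 and 2 in aged 3, of 80. Of the genes averaging 50 CPM or more, 6.49%, 23.0% and 8.82% were that low. These values rest on CPM, which takes no account of length. In TPM, members summed to 7.02% in aged 2, still the lowest library, and to 10.8% and 8.30% in aged 1 and 3. The young libraries held 8.69%, 10.8% and 9.23%. By TPM, Rps29 was lowest in aged 3 (5249, against 5348 in aged 2), and Rps9 was highest in aged 2 (995). Rpl13, Rpl18, Rps3, Rps19 and Rps26 also had their lowest TPM in another library, while Rpl34, Rpl41 and Rps25 had it in aged 2. So the 70 of 80 above holds for CPM, and the number of members lowest in aged 2 by TPM was not counted. Aged 2 also held the lowest border macrophage sum and the highest microglia sum given above. Their part in the low member levels was not tested.

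**Figure D4:**
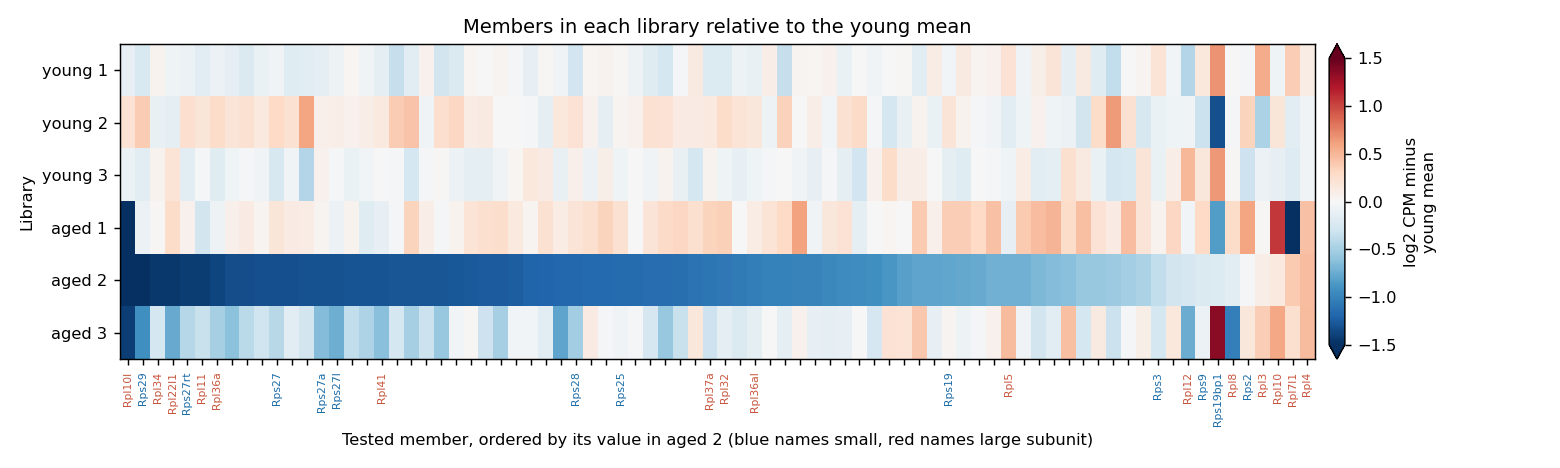
Log2 CPM of each tested member minus its young mean (colour, blue lower and red higher), 1 strip per library, members ordered by their value in aged 2 and labelled where the text discusses them. On the CPM scale aged 2 is blue for nearly all members (lowest library for 70 of 80), while aged 1 is mostly near or above the young mean.

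The members were not all low in aged 2. Relative to the young mean, the log2 difference there was 0.47 for Rpl4, 0.15 for Rpl10, 0.10 for Rpl3, -0.03 for Rps2, -0.16 for Rpl8 and -0.22 for Rps9. At the other end stood Rps29 at -1.51, Rpl34 at -1.45 and Rpl22l1 at -1.45. The trace-level Rpl10l was low in each aged library, at -1.61, -1.53 and -1.42, values that the added 0.5 CPM sets. Rps9, one of the genes with a tract shown above, whose bacterial counterpart affects decoding accuracy, shows the contrast within a subunit, with 936, 668 and 942 CPM at 2 months and 1033, 720 and 787 CPM at 18 months. Rpl8, of the large subunit core, was instead low in aged 3, at 96.4 CPM against 176 to 238 CPM in the other libraries.

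Many members that were not low in aged 2 were long, as read from the effective length in bases that the authors' tables give for each gene. Rpl4, Rpl10, Rpl3 and Rps2 had 1198, 514, 838 and 558 bases, but Rpl18, at -0.28, had 181. Long members could also be low there, such as Rps3a1 (704 bases) at -1.24 and Rps4x (652 bases) at -1.25. These lengths ran from 74.6 to 1437 bases over tested members (median 299.9). Among the 76 members of at least 50 CPM, the difference from young was higher at longer effective length in aged 2 (Spearman's rho 0.42), with 0.15 in aged 1 and 0.31 in aged 3. Young libraries set against the other young ones gave 0.38, -0.34 and 0.05. Over all genes of at least 50 CPM, rho was 0.33 in aged 2, 0.12 in aged 1 and 0.02 in aged 3. The points share a library, and short members dominate the set, so these values are descriptions. In aged 2 the 25 shortest members (up to 237 bases) had a median of -1.17 and the 25 longest (from 395 bases) a median of -0.75, so both were below the young mean. For GC content of the transcript, rho in aged 2 was 0.29 over members and 0.21 over all genes of that level.

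**Figure D5:**
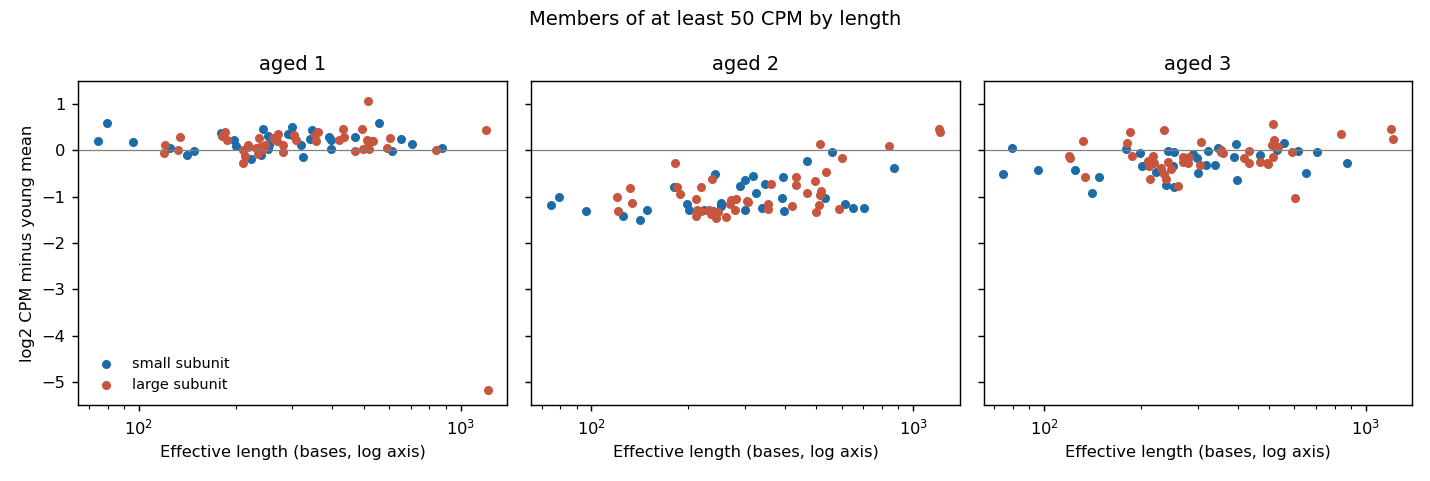
Log2 CPM minus the young mean against effective length (log axis) for members of at least 50 CPM, in each aged library; blue small and red large subunit. In aged 2 the median is -1.17 for the 25 shortest and -0.75 for the 25 longest members, with long members both near 0 and far under it; the point at -5.16 in aged 1 is Rpl7l1.

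Members varied little between young libraries. The median SD of log2 CPM was 0.17 for members and 0.42 for all genes of at least 50 CPM. In the aged group it was 0.66 for members against 0.58 for all such genes, and 0.27 against 0.39 between aged 1 and aged 3 alone. On log2 shares of the members' own sum, the median SD within groups was 0.17, with aged 2 included. So members moved mostly together, and most of the spread in the aged group came with aged 2.

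As a share of that sum, a scale chosen after the data had been seen, 10 of 76 members had all aged values above all young ones and 10 had them all below. On the same scale 14.8% and 4.89% of all genes of at least 50 CPM did so. These shares are not a like background. Members are divided by a sum they make up, so rises and falls balance. Other genes are divided by a sum that was low in aged 2 and aged 3 (3.29% and 4.68% of counts), which raises their aged values. Rps29 went from 5.83 ± 0.998% to 4.22 ± 0.668% of the sum (SD, n = 3 each), and Rpl41 from 3.36 ± 0.160% to 2.72 ± 0.155%. Rpl4 took 0.352 ± 0.0407% in young and 0.665 ± 0.299% in aged libraries, and Rps2 0.332 ± 0.0564% and 0.514 ± 0.131%. Rps19, mutated in Diamond-Blackfan anaemia, took 2.11 ± 0.133% and 2.50 ± 0.0385%. In edgeR with the members' sum as library size, 0 of 80 members passed (background 0.00935%), with a fitted log2 change of 0.92 (SE 0.37, adjusted p = 0.704) for Rpl4 and -0.47 (SE 0.22, adjusted p = 0.770) for Rps29.

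The relatives of standard genes spanned a wide range of levels. Rps27l, a relative of Rps27 known as a p53 target, was at 824, 929 and 847 CPM at 2 months and 814, 351 and 519 CPM at 18 months (log2 fold change -0.63, SE 0.35, edgeR adjusted p = 0.930). Its groups did not overlap, with aged 1 just under the lowest young library, and none of its windows are shared. Rps27rt, a retrocopy of Rps27, ranged from 558 to 742 CPM at 2 months and from 233 to 653 CPM at 18 months, but 89.5% of its windows are identical to Rps27, so reads from those stretches cannot be told apart. Rpl36al ranged from 939 to 1148 CPM at 2 months and was at 1102, 494 and 926 CPM at 18 months. Rpl22l1, which can stand in for Rpl22, was at 175, 165 and 211 CPM at 2 months and 221, 66.6 and 108 CPM at 18 months, with overlap.

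Rpl10l, a retrogene of Rpl10 known for its role in sperm formation, was at trace level and had the largest fitted change of the tested members. It had 28, 34 and 26 counts in young and 0, 1 and 2 counts in aged libraries, and shares no 100-base window with another gene. It passed the low-count filter through its young libraries alone, so its rank among tested members is no support for a change. Summed over libraries, the young level was 32.6 times the aged one (exact 95% interval 10.8 to 161, covering counting error only). The fitted log2 fold change of -4.84 (SE 1.53) did not pass edgeR's test (adjusted p = 0.656). The DESeq2 Wald test called it lower (adjusted p = 0.00389) and no other member, beside a background of 3.47% of the genes with an adjusted p (2.05% higher, 1.43% lower).

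The relatives Rpl3l and Rpl39l had counts in too few libraries to pass the low-count filter. Rpl3l had 139 counts in young 2 and 0 in each other library. Rpl39l reached 7.30 CPM in young 3 and at most 1.48 CPM elsewhere. Rpl7l1 was at 103, 70.8 and 69.5 CPM at 2 months and at 1.74, 105 and 94.2 CPM at 18 months, so aged 1 stood far under the other 5 libraries. Rps19bp1 ranged from 10.9 to 44.5 CPM at 2 months and from 15.3 to 72.2 CPM at 18 months.

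The 6 standard genes that the pattern misses had 0 of 6 called (background 0.00938%) and a median log2 fold change of -0.19. The stalk genes had unlike values in aged 2. Rplp0, the large anchor of the stalk, was at 419, 276 and 211 CPM at 2 months and 433, 393 and 343 CPM at 18 months, and was not low in aged 2. Rplp1, a small stalk protein, was at 930, 922 and 761 CPM at 2 months and 962, 376 and 662 CPM at 18 months. Rpsa, the laminin receptor gene, ranged from 199.8 to 304 CPM at 2 months and from 210.2 to 261 CPM at 18 months. Fau, which encodes a fusion with a ubiquitin-like protein, was lowest in aged 2 at 358 CPM, and Rplp2 there at 312 CPM.

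Other genes of the translation machinery were read from lists, and 0 members of any list passed edgeR's test over all genes. Of 22 elongation factors and other TOP mRNAs, 14 had fitted values below 0 (median -0.07). Tpt1, the most abundant by TPM and a TOP mRNA, was at 1224, 1506 and 1154 CPM at 2 months and 1221, 614 and 944 CPM at 18 months, so it was lowest in aged 2, like the members. Gas5, a TOP RNA that hosts small nucleolar RNAs, was at 351 to 399 CPM at 2 months and at 402, 163 and 498 CPM at 18 months. The elongation factor subunit Eef1d was at 41.3, 47.3 and 23.4 CPM at 2 months and 66.9, 96.1 and 84.5 CPM at 18 months, without overlap (log2 fold change 1.14, SE 0.51, edgeR adjusted p = 0.883).

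Initiation factors (30 tested) had a median of 0.27, with 14 below 0. Eif5a, which eases the joining of difficult residues, was at 85.3, 102 and 95.6 CPM at 2 months and 130, 324 and 259 CPM at 18 months. Its groups did not overlap (log2 fold change 1.34, SE 0.41, edgeR adjusted p = 0.630). Its highest value was in aged 2. Eif1, the start codon selection factor and the most abundant of the list, was at 2014 to 2177 CPM at 2 months and 1980, 1165 and 2282 CPM at 18 months. Eif4e and Eif4a2, of the cap-binding complex, had fitted changes of -0.75 (SE 0.49) and -0.63 (SE 0.35).

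Ribosome biogenesis genes (44 of 45 tested) had a median of 0.63, with 15 below 0 and a median SE of 1.33. Nop10, of the RNA-modifying H/ACA particle, was at 525, 573 and 593 CPM at 2 months and 417, 201 and 386 CPM at 18 months (log2 fold change -0.75, SE 0.34, edgeR adjusted p = 0.883), without overlap. Polr1d, a polymerase I subunit, had a fitted change of -0.63 (SE 0.38). Gnl3, the nucleolar protein nucleostemin, was at 5.19, 23.4 and 14.2 CPM at 2 months and 61.2, 47.7 and 168 CPM at 18 months (log2 fold change 2.70, SE 0.77, edgeR adjusted p = 0.619).

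Regulators of growth and transcription (22 of 24 tested) had a median of -0.18. Rheb, the activator of mTORC1, ranged from 51.4 to 139.6 CPM at 2 months and 83.5 to 118 CPM at 18 months, and the translation repressor gene Eif4ebp1 from 34.4 to 108 and 84.2 to 116 CPM. Rps6ka1, a kinase gene, had a fitted change of 0.79 (SE 0.82) and Mxd1, a repressor of the Myc network, of -2.61 (SE 1.78).

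Mitochondrial ribosomal protein genes, which serve the separate ribosome of that organelle, summed to 7217, 7934 and 8423 CPM at 2 months and 7251, 4235 and 7563 CPM at 18 months. Aged 2 was again lowest, although the median log2 fold change of the 78 genes was -0.05, with 42 below 0. Mrps21 was at 569, 520 and 624 CPM at 2 months and 460, 206 and 536 CPM at 18 months. Mrps18c had groups that did not overlap (296 to 379 CPM at 2 months against 125 to 286 CPM at 18 months, edgeR adjusted p = 0.958), and so had Mrpl50 (45.6 to 126 against 13.2 to 41.0 CPM, edgeR adjusted p = 0.797). Mrps2 was at 5.89, 2.49 and 0.751 CPM at 2 months and 48.9, 28.3 and 21.8 CPM at 18 months (log2 fold change 3.44, SE 1.18, edgeR adjusted p = 0.707).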

How the data were processed

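Sorted brain macrophages were profiled with the SMARTer Ultra Low Input kit, which does not mark strand, as single reads without molecular identifiers, so counting intervals cover counting error only. Per the submitters' processing notes, the tools were bcl2fastq 2.20, fastp, FastQC, Picard and DRAGEN and the build mm10, with no roles given; the annotation release is not given in the sources used here. The deposited tables hold estimated counts per gene (not scaled to depth), TPM scaled by the authors for length and depth, and effective lengths. Of the estimated counts, 90.2% to 92.9% were exactly whole (no tolerance, zeros included), but only 52.4% to 58.5% of those of members were. They were rounded to whole numbers. Identifiers were matched to GENCODE M21 (35513 of 35598).

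Genes passing filterByExpr were tested in edgeR 4.0.16 (R 4.3.3) with TMM scaling and a robust quasi-likelihood F test, two-sided, with Benjamini-Hochberg adjustment over 10661 genes and a call at an adjusted p under 0.05. The SE of a log2 fold change (aged minus young) comes from the F statistic. DESeq2 1.42.0 and limma 3.58.1 served as alternatives. Levels per library use TMM-scaled CPM; differences from the young mean use log2(CPM + 0.5), and a young library was set against the other young ones. Between-gene comparisons use TPM. Members and lists were chosen with earlier results of these data known. Named genes were the 4 highest and 3 lowest standard members of each subunit by TPM, the 3 with the smallest p in each direction, the relatives, the genes the pattern misses and, in each other list, the 2 most abundant and the smallest p in each direction. Some genes that this rule names are not reported here. Rpl8, Rpl34, Rps9, Rps19, Rpl18, Rps3a1, Rps4x and the members shown by sequence were added after their values were seen. Of tested members, 13 overlap a tested gene on the opposite strand, which had the higher mean for Rpl5. The test was checked on simulated counts. Paralog proteins were not compared.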

Additional observations from a re-analysis of the deposited data

How the results depend on the processing

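No member was called under any of the alternatives except the DESeq2 Wald test, which called 1 member (Rpl10l, lower) and 3 genes of the machinery lists, all higher, of 205 tested, where edgeR called 0 and 0. DESeq2 called 3.47% of all genes (2.05% higher, 1.43% lower). TPM in place of counts gave a member sum of 9.57% in young and 8.71% in aged libraries and a small to large ratio of 1.13 and 1.06. Without the most abundant member of each subunit the ratio was 0.875 in young and 0.854 in aged libraries. The median log2 fold change ranged from -0.50 to -0.0043 for the small and from -0.52 to -0.0042 for the large subunit when 1 library was left out, and the aged sum from 3.98% to 5.36%. With the members' sum as library size, chosen after seeing the data, the medians were 0.0019 and 0.06. On log2(TPM + 1) in limma they were -0.13 and -0.09.

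Same-numbered libraries deviated together with correlations of -0.0084, 0.04 and 0.09 over genes of at least 50 CPM. The highest value, 0.10, was between young 1 and aged 2. Such correlations cannot show whether libraries were collected or prepared in numbered pairs, since they measure levels alone. With the replicate number as a block, 0 members were called and the medians were -0.37 and -0.35. Of 892 alternative values of 53 named genes, 859 lay within 1 SE of the value given, 2 became calls (Rpl10l and Mrps2, in DESeq2) and 50 had another sign, 17 of them with the members' sum as library size and 10 without aged 2. The number of libraries, 3 a group, limits what could be called, and 0 calls do not show that members were alike at both ages.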

Other observations

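The 3 genes of the machinery lists called by DESeq2 were Fbl, Eif2b5 and Mrps2, named here because of their values. They are 3 of 205 tested, beside 3.47% of all genes called by DESeq2 (2.05% higher). Fbl, the methyltransferase fibrillarin of the box C/D particles that modify ribosomal RNA, was at 2.40, 3.31 and 2.50 CPM at 2 months and 12.9, 12.5 and 13.4 CPM at 18 months. The spread within each group was small, and the level in aged 2 did not stand apart. DESeq2 gave a log2 fold change of 2.25 (SE 0.47, adjusted p = 0.000327), while edgeR gave 2.24 with an SE of 1.44 (adjusted p = 0.958). Eif2b5, a subunit of the exchange factor of initiation factor 2, had 1, 6 and 1 counts in young and 70, 178 and 102 counts in aged libraries (DESeq2 adjusted p = 0.000299, edgeR adjusted p = 0.753).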
